A study of Mus musculus with 2 samples.

Results

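The cytosolic ribosomal protein genes encode the proteins that, together with the rRNAs, build the large and the small subunit of the cytoplasmic ribosome. They were taken by symbol: Rpl, Rps or Rplp with a number, at most 1 letter and 1 more digit, and at least 1 transcript annotated as protein_coding. The rule found 82 genes among the 55536 genes of the tables, 51 of the large subunit and 31 of the small subunit, on 19 chromosomes. Of these, 79 had a mean of 10 or more counts over both libraries and 76 had 100 or more. Another 6 genes fit the symbol but have no protein_coding transcript and were left out.

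All measurements come from 1 group of 2 libraries, biological replicates 2 and 1, and both carry the same treatment. Bone marrow-derived macrophages of C57BL/6J mice were given 100 ng/ml Lipid A, the lipid anchor of lipopolysaccharide and a ligand of Toll-like receptor 4, for 12 h. After a washout of 12 h they were given 100 ng/ml again for 30 min, and rRNA-depleted RNA of the nucleoplasmic fraction was sequenced. Library building began with 500 ng RNA in replicate 2 and 1 µg in replicate 1, both replicates carry the same donor identifier, and age and sex were not collected. No source says that the cultures were separate, so the spread between these libraries may be technical. With no second condition there is no test and no p-value, and every difference below is between these libraries.

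In cells, ribosomal protein mRNAs are made at a high rate, spliced in the nucleus and exported, and the proteins return to the nucleolus for assembly with rRNA. Their mRNAs are known for a start with a run of pyrimidines, through which the kinase mTOR controls their translation. Many of the genes also carry small nucleolar RNAs (snoRNAs), the guides of rRNA modification, inside their introns. RNA from the nucleoplasm holds young transcripts beside finished mRNA, so levels here are not those of the cytoplasm.

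The libraries held 20675294 gene counts in replicate 2 and 23845991 in replicate 1. The labelled cell type fits its markers: 10 of 10 macrophage genes had 1 TPM or more in both libraries, with summed TPM of 4550 in replicate 2 and 2819 in replicate 1. Of 5 T and NK cell markers, 3 (Cd2, Cd3e and Nkg7) were at 0 in both libraries, and the list summed to 0.08 TPM in replicate 2 and 0.06 TPM in replicate 1. B cell markers summed to 0.26 TPM in replicate 2 and 0.10 in replicate 1, neutrophil markers to 2.26 and 1.27, erythroid markers to 3.28 and 2.01, with 1 of them above 1 TPM in both libraries, fibroblast markers to 0.11 and 0.25, and endothelial markers to 1.64 and 1.02. Of these lists, Ly6g and Tek were at 0 in both. The nuclear RNAs Malat1, Neat1 and Rn7sk made up 14.4% of all counts in replicate 2, against 16.2% in replicate 1. For 7 mitochondrial mRNAs, chosen as a sign of cytoplasm, the shares were 5.12% in replicate 2 and 2.24% in replicate 1. RNA from outside the nucleus may thus be present in the fraction, and its part in the levels of the members was not tested. With the mitochondrial genes left out of the TMM scaling, the median count ratio of the members was 0.02 and 0 members passed 2-fold, as with them. The part of the difference in mitochondrial share in the TPM values was not tested.

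Per length, ribosomal protein genes stood well above the typical protein-coding gene in the nucleoplasmic fraction. Over the 80 members listed above 0 TPM (a level per length, scaled to a fixed total in each library), the median was 32.7 TPM in replicate 2 and 24.9 TPM in replicate 1, a mean of 28.8 ± 5.57 TPM (SD, n = 2). The 11561 other nuclear protein-coding genes with 10 or more mean counts had medians of 5.62 TPM and 4.60 TPM. The 78 mitochondrial ribosomal protein genes, which serve the ribosome inside mitochondria, had 4.07 TPM in replicate 2 and 3.15 TPM in replicate 1. In both libraries, 68 members exceeded 10 TPM, 40 of the large and 28 of the small subunit. Members were also closer to one another in level than the other protein-coding genes were. At 10 or more mean counts, they spanned 1.37 (replicate 2) and 1.15 (replicate 1) between the quartiles on the log2 TPM scale, against 3.02 and 3.03. This was not particular to the members, as the mitochondrial ribosomal protein genes spanned 1.28 and 1.05. At 100 or more mean counts the members spanned 1.32 and 1.01 and the other protein-coding genes 2.18 and 2.19. All members together nevertheless took only 43537 counts, or 0.211% of gene counts, in replicate 2 and 48070 counts, or 0.202%, in replicate 1. Wilson intervals at 95% run from 0.209% to 0.213% and from 0.1998% to 0.203%. Such intervals cover counting error only. In bulk RNA, fewer cells and less RNA per cell cannot be told apart.

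**Figure D1:**
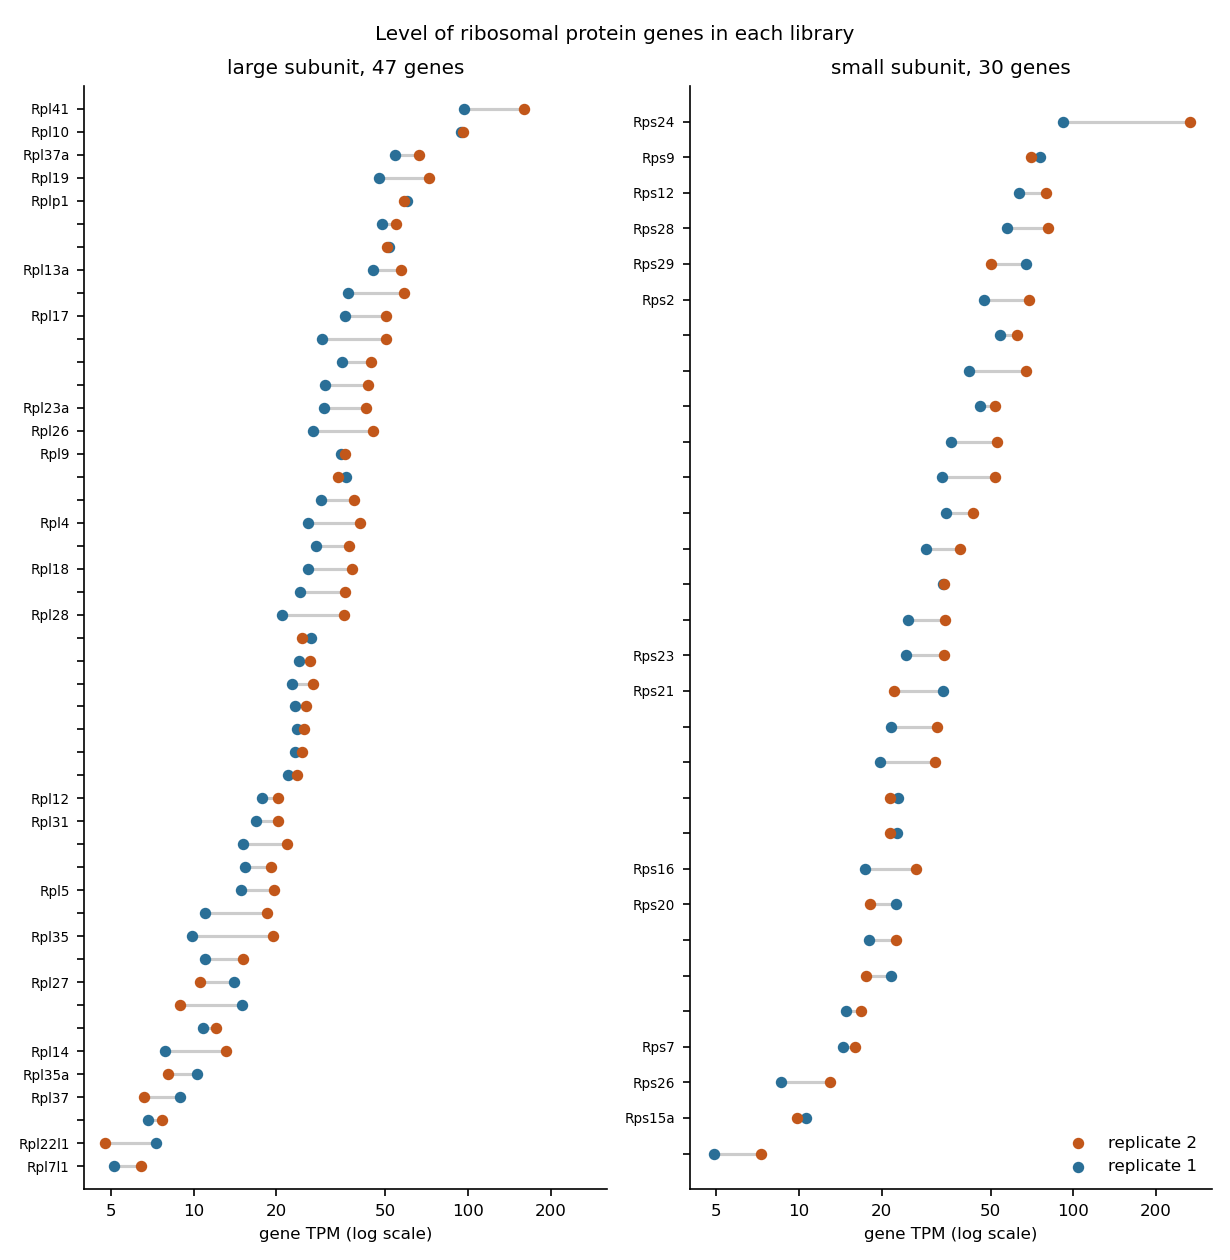
Gene TPM (log scale) of 77 members with a mean of 10 or more counts, ranked by mean within the large subunit (left, 47 genes) and the small subunit (right, 30 genes), with names for the genes described; orange points are replicate 2 and blue points replicate 1, joined by a line. Rps24, at 265 TPM in replicate 2 and 91.8 TPM in replicate 1, has the longest line.

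The highest small subunit gene was Rps24, whose human counterpart is one of the genes mutated in Diamond-Blackfan anaemia. Rps24 had 265 TPM in replicate 2 and 91.8 TPM in replicate 1, from 3155 and 2833 counts. In scaled counts that is a log2 ratio of 0.35 (0.28 to 0.43), against 1.53 in TPM, so that the libraries differed more in its level per length than in its counts. Rps9 followed with 70.0 TPM in replicate 2 and 75.6 TPM in replicate 1, Rps12 with 79.5 and 63.5, Rps28 with 80.8 and 57.1, Rps29 with 50.2 and 67.5, and Rps2 with 69.1 and 47.4 TPM. Rps28 and Rps29 encode very small proteins, and Rps2 lies at the mRNA entry side of the small subunit. Rps9 and Rps29 were higher in replicate 1 and the other 3 in replicate 2. The rank of Rps12 depends on the quantification. In the authors' second, read-based transcript values it had 11.55 TPM in replicate 2 and 6.20 TPM in replicate 1. The median of the members there was 15.8 TPM (mean of both libraries).

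The highest large subunit gene was Rpl41, which encodes the shortest protein of the set. Rpl41 had 160 TPM in replicate 2 and 96.5 TPM in replicate 1, from 1103 and 905 counts. Its whole coding sequence is 78 bases long and encodes 25 amino acids. It is shown with the start and the stop codon in capitals (transcript Rpl41-203, GENCODE M21 on GRCm38, minus strand, chr10:128548387-128548960 with introns):
Rpl41-203: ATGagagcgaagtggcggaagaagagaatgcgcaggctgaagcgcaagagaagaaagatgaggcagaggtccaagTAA

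Rpl10, a late-joining protein of the large subunit near the peptidyl transferase centre, had 95.6 TPM in replicate 2 and 94.7 TPM in replicate 1. In scaled counts it was lower in replicate 2, with 1563 counts in replicate 2 and 1994 in replicate 1, a log2 ratio of -0.15 (-0.25 to -0.06). Rpl37a had 66.4 TPM in replicate 2 and 54.2 TPM in replicate 1, Rpl19 72.3 and 47.2 TPM, and Rplp1, a protein of the flexible stalk that binds translation factors, 58.6 and 59.9 TPM. The other stalk genes were of the same order: Rplp0 had 43.2 TPM in replicate 2 and 30.2 TPM in replicate 1, and Rplp2 had 50.8 and 51.7 TPM. By listed gene TPM, of the 10 highest members in replicate 2, 6 were among the 10 highest in replicate 1: Rpl10, Rpl41, Rps12, Rps24, Rps28 and Rps9.

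At the low end of the large subunit by listed TPM, Rpl7l1 had 6.43 TPM in replicate 2 and 5.11 TPM in replicate 1, and Rpl22l1 had 4.75 and 7.29 TPM. Rpl37, a zinc-binding protein, had 6.60 TPM in replicate 2 and 8.91 TPM in replicate 1. The lowest small subunit genes with 100 or more mean counts were Rps15a at 9.84 and 10.7 TPM, Rps26 at 12.9 and 8.62 TPM, and Rps7 at 15.99 and 14.5 TPM. Across members, log2 TPM in replicate 2 and replicate 1 had a Spearman rho of 0.94 and a Pearson r of 0.93 (79 genes), against 0.98 and 0.97 over 11547 other protein-coding genes. Genes of 1 library are not independent replicates, so these values describe the agreement of the libraries only.

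Of the members, 6 are paralogs with a symbol ending in l or l1, and all 6 had a lower listed TPM than their parent gene in both libraries. Rps27l, a p53-responsive gene, had 7.28 TPM in replicate 2 and 4.89 TPM in replicate 1, against 62.5 and 54.0 TPM for Rps27. Rpl7l1 was below Rpl7, which had 35.5 TPM in replicate 2 and 24.3 TPM in replicate 1, and Rpl22l1 was below Rpl22 at 15.2 and 11.0 TPM. The gap of the last pair was the smallest: Rpl22 stood 3.19-fold above Rpl22l1 in replicate 2 and 1.5-fold in replicate 1. The deposited credibility bounds of TPM do not settle the order of this pair. They ran from 4.24 to 70.8 for Rpl22l1 and from 12.4 to 18.3 for Rpl22 in replicate 2. In replicate 1 they ran from 6.63 to 51.9 and from 9.09 to 13.4. Rpl10l, known from the testis, and Rpl3l, known from heart and skeletal muscle, had 0 counts in both libraries. A count of 0 allows up to 3 counts, which is 0.145 CPM (counts scaled to the library total) in replicate 2 and 0.126 in replicate 1. Rpl39l, also known from the testis, had 3 counts in replicate 2 and 2 in replicate 1, next to 129 and 157 for Rpl39.

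The levels of the subunits overlapped. At 10 or more mean counts, the 48 large subunit genes had a median of 30.4 TPM in replicate 2 and 24.3 TPM in replicate 1, and the 31 small subunit genes had 33.8 and 29.0 TPM. The difference of the medians of log2(TPM + 0.1), large minus small, was -0.16 in replicate 2 and -0.25 in replicate 1, a mean of -0.21 ± 0.068 (SD, n = 2). The ranges between the quartiles overlapped, running from 19.4 to 46.4 TPM for the large and from 21.5 to 52.3 TPM for the small subunit in replicate 2, and from 14.9 to 35.0 and from 20.7 to 43.7 TPM in replicate 1. The sign did not hold under other choices. In CPM, which is not divided by length, the difference was 0.004, and without the 23 members that overlap another gene with counts it was 0.17. Large subunit proteins were longer by coding sequence, with a median of 157 amino acids against 146 for the small subunit.

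Length and level were weakly related once levels were per length. Effective length, the number of positions at which a fragment can start, had a Spearman rho of -0.22 and a Pearson r of -0.24 with mean TPM across 79 members on log2 scales. The 27 shortest members, with effective lengths from 144 to 399 bases, had a median of 36.2 TPM. The next 26 had 26.8 TPM, and the 26 longest, from 640 to 1985 bases, had 27.7 TPM. In CPM the sign turned round, with medians of 14.7, 20.3 and 31.7 from short to long, a rho of 0.49 and an r of 0.48. Effective length is on the x axis and is also the divisor of TPM, so that the measures share a term. For 11547 other protein-coding genes the same rho was -0.02 with TPM and 0.33 with CPM. Coding length, which TPM does not use, had a rho of 0.06 with mean TPM over the 79 members.

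**Figure D2:**
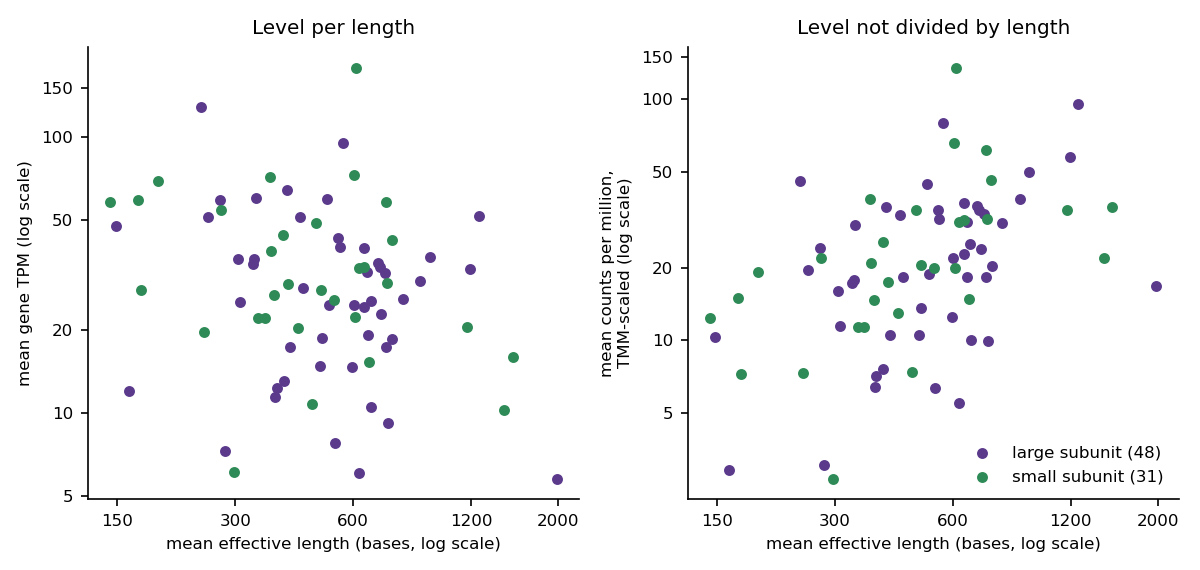
Mean effective length (bases, log scale) of 79 members against mean gene TPM (left) and against mean TMM-scaled CPM (right), both on log scales; purple points are large subunit genes and green points small subunit genes. The cloud leans slightly down on the left (rho of -0.22) and up on the right (rho of 0.49).

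In counts, the ribosomal protein genes differed little between the libraries. After scaling by TMM, the median log2 ratio of the 79 members, replicate 2 over replicate 1, was 0.02, with quartiles of -0.20 and 0.24. For the 76 members with 100 or more mean counts it was 0.02, the same as the 0.02 of all 9675 genes at that depth. The summed counts of the 79 members gave a log2 ratio of 0.05, with an exact Clopper-Pearson interval of 0.04 to 0.07. Of 76 members, 0 were more than 2-fold higher in replicate 2, against 1.67% of all genes, and 0 were more than 2-fold lower, against 1.82% of all genes. With so few called among all genes, both counts of 0 are near the background. The median size of the ratio, whatever its sign, was 0.22 for the 76 members and 0.26 for all genes.

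Single members still differed by more than counting error. The interval of the log2 ratio lay above 0 for 24 of 79 members, below 0 for 25, and held 0 for 30. At 100 or more mean counts it lay above 0 for 23 of 76 members, or 30.3%, against 34% of all genes, and below 0 for 24, or 31.6%, against 31% of all genes. These shares are near the background, from median counts of 463 for members and 557 for all genes. On the high side, Rpl35, which sits by the exit of the peptide tunnel, had 320 counts in replicate 2 and 229 in replicate 1, a log2 ratio of 0.68 (0.43 to 0.93). Next at 100 or more mean counts came Rpl28 (0.50), Rpl26 (0.48) and Rpl41 (0.48). On the low side, Rps21 had 109 counts in replicate 2 and 219 in replicate 1, a log2 ratio of -0.81 (-1.15 to -0.47). Rpl37 had 96 and 192 counts and a ratio of -0.80 (-1.17 to -0.44). Rpl27, Rpl22l1 and Rps29 followed with -0.69, -0.65 and -0.61. Rpl36 had the lowest ratio at 10 or more mean counts, -0.93 (-1.51 to -0.39), from 41 counts in replicate 2 and 90 in replicate 1. Of these 6 low members only Rps29, with 245 counts in replicate 2 and 428 in replicate 1, exceeded 219 counts in a library. Rpl35 overlaps Arpc5l and Wdr38 and Rpl28 overlaps Ube2s, each on the opposite strand. No source gives the strandedness of the quantification, so their counts may include reads of those genes.

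**Figure D3:**
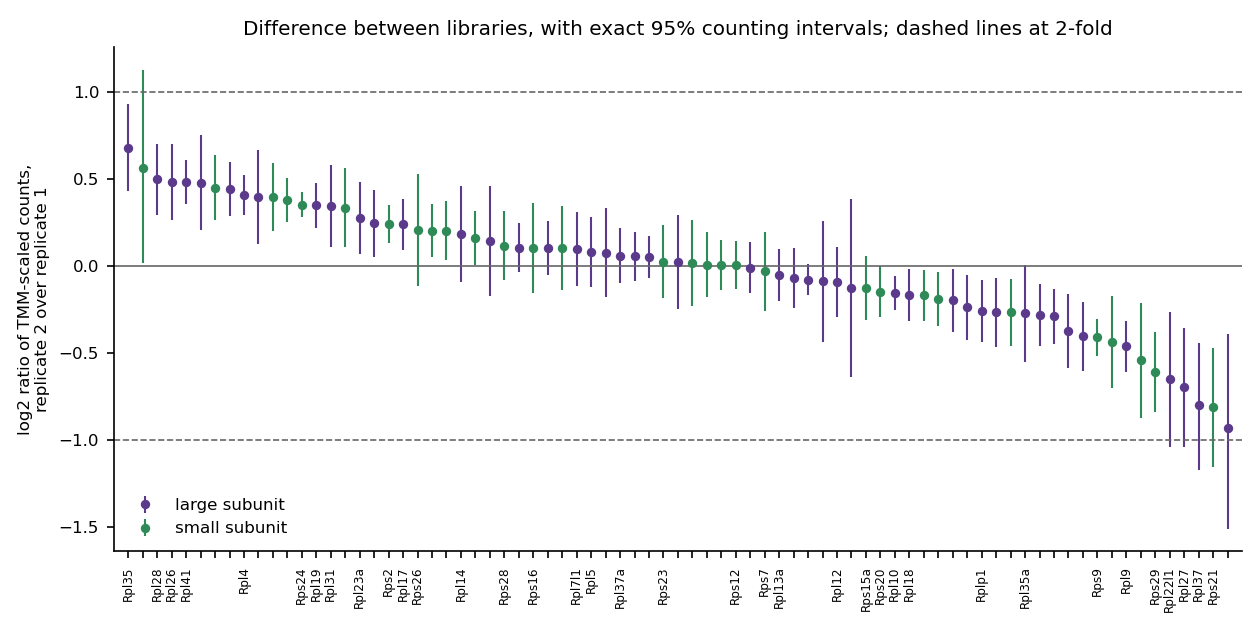
The log2 ratio of TMM-scaled counts, replicate 2 over replicate 1, of 77 members with a mean of 10 or more counts, in falling order, with exact 95% counting intervals as bars; purple marks the large and green the small subunit, and dashed lines mark 2-fold. All points lie between the dashed lines, with Rpl35 at 0.68 on the left and Rpl36 at -0.93 on the right.

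The TPM ratio tells nearly the same story on a shifted scale. The median TPM ratio of all 9675 genes was 0.26 (log2, replicate 2 over replicate 1), and that of the 79 members was 0.33. TPM was higher in replicate 2 for 61 of 79 members, and 17 of those had lower scaled counts there. At 100 or more mean counts the share was 77.6% of members, near the 72.9% of all genes. Of the 76 members with 100 or more mean counts, 2 were more than 2-fold higher in TPM in replicate 2, Rps24 among them, against 4.81% of all genes, and 0 were more than 2-fold lower, against 0.775%. Relative to the shift of all genes, the Rps24 ratio of 1.53 becomes 1.27. The deposited credibility bounds of TPM, which give the estimation error within a library, did not overlap for 37 of 76 members (48.7%) with TPM higher in replicate 2, against 38.9% of all genes, and for 2 members (2.63%) with TPM lower, against 8.03% of all genes. The shift of all genes enters these counts too.

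A TPM ratio can leave the count ratio only through the effective length, since TPM is counts over effective length on a fixed total. The gap, the log2 TPM ratio minus the log2 count ratio minus the median difference of all genes (0.26), followed the log2 ratio of effective lengths with a Pearson r of -0.9999 across 79 of the members. Of 76 members, 63 had a gap within 0.2 of 0. Rps24 was the 1 member beyond 1.5-fold with the TPM ratio higher, against 0.817% of all genes, and 0 members were beyond 1.5-fold with the TPM ratio lower, against 0.641%. As a share, 1 in 76 members is 1.32%, which at this number of genes is near the background. Rps24 had a gap of 0.92, the next highest was Rpl18 at 0.43, and the lowest was Rps20 at -0.42.

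**Figure D4:**
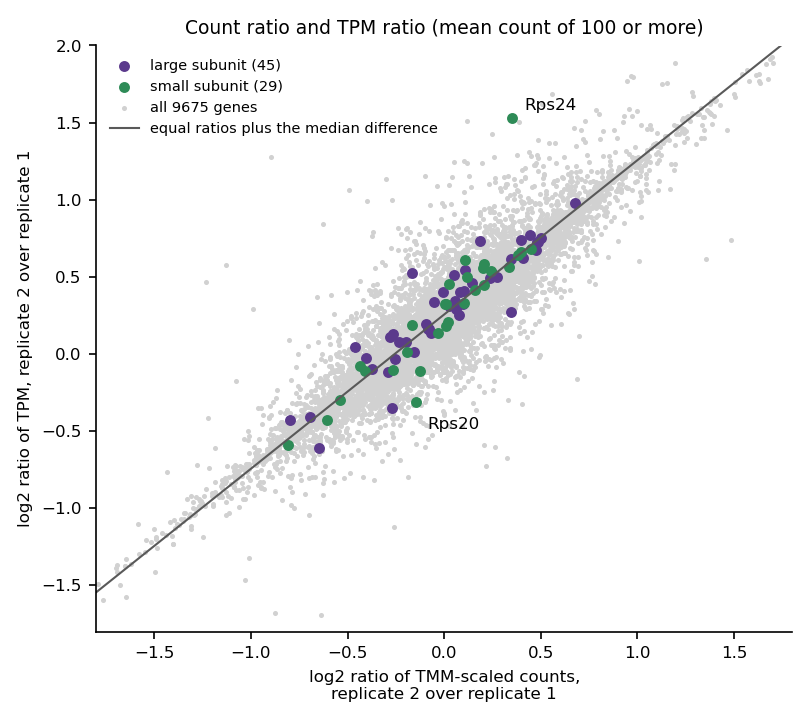
The log2 ratio of TMM-scaled counts (x axis) against the log2 ratio of TPM (y axis), replicate 2 over replicate 1, at a mean of 100 or more counts; purple and green points are large (45) and small (29) subunit genes, grey points all 9675 genes, and the line marks equal ratios plus the median difference of 0.26. Rps24 lies 0.92 above the line and the next farthest member, Rpl18, lies 0.43 above it; a few grey points fall outside the axes.

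The effective length of Rps24 was 428 bases in replicate 2 and 795 bases in replicate 1, and its counts were divided differently among transcripts. The short coding transcript Rps24-201, 468 bases long, held 80.6% of the gene's TPM in replicate 2 and 54.4% in replicate 1, from 1482 and 461 counts. The longer coding transcript Rps24-210, of 1613 bases, held 11.9% and 24.9%, from 1222 and 1227 counts. The retained_intron transcripts Rps24-204 and Rps24-212 had 186 and 112 counts in replicate 2, against 648 and 320 counts in replicate 1. The read-based table gave the same direction for Rps24-201, with 126 TPM in replicate 2 and 31.99 TPM in replicate 1, and for Rps24-212, with 684 and 1563 estimated counts. It divided the intron-retaining counts otherwise, with 13.8 counts in replicate 2 and 63.6 in replicate 1 for Rps24-204.

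Rps24 is known to be spliced in several ways at the 3′ end of its coding sequence. The coding transcripts Rps24-201, Rps24-210 and Rps24-205 are such forms. Their last coding bases are shown from the final stretch they share, with the bases that differ in capitals (GENCODE M21 on GRCm38, plus strand; Rps24-201 at chr14:24493470-24495432, Rps24-210 at chr14:24493470-24495786 and Rps24-205 at chr14:24493470-24494057, introns included):
Rps24-201: gccaatgttggtgctggcaaaaagTGA
Rps24-210: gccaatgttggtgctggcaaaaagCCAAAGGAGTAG
Rps24-205: gccaatgttggtgctggcaaaaagAAATGA

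These forms encode 130, 133 and 131 amino acids. Rps24-201 had 214 TPM in replicate 2 and 49.9 TPM in replicate 1, Rps24-210 had 31.5 and 22.9 TPM, and Rps24-205 was listed at 0 TPM in both libraries. Per length, the form with the earliest stop was thus the most abundant in each library. In counts, Rps24-210 came first in replicate 1 and Rps24-201 in replicate 2.

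As the gap follows effective length, other large gaps go with changes among transcripts by construction, and some of these changes are given here. For Rpl18, a 2989-base coding transcript (Rpl18-207) had 252 counts in replicate 2 and 478 in replicate 1, and the gene's effective length was 622 and 823 bases. For Rpl14, the nonsense_mediated_decay transcript Rpl14-205 held 31.8% of TPM in replicate 2 and 12.8% in replicate 1. Rpl9 had a gap of 0.25. On the negative side stood Rpl35a (-0.34), Rpl31 (-0.33), Rps15a (-0.25) and Rpl22l1 (-0.22), with Rps20 the lowest. In Rps20 the 3706-base coding transcript Rps20-203 held 31.96% of TPM in replicate 2 and 20.95% in replicate 1, and effective length was 1353 and 992 bases. These splits of reads among transcripts are estimates, and a longer or shorter mean length changes TPM without any change in counts. Rpl18 overlaps Sphk2, which had 1391 counts in replicate 2 and 1989 in replicate 1. Rpl31 overlaps Tbc1d8, with 831 and 842 counts. Both neighbours lie on the opposite strand, and with strandedness not given, the counts of Rpl18 and Rpl31 may include their reads.

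Many counts of ribosomal protein genes were given to transcripts that are not annotated as coding. Pooled over all members, retained_intron transcripts, in which an intron is kept, took 15.8% of expected counts in replicate 2 and 20.9% in replicate 1. Processed_transcript forms, which have no open reading frame assigned, took 2.79% and 2.83%, and nonsense_mediated_decay forms, which carry an early stop, took 2.44% and 2.18%. Pooled over 8561 other protein-coding genes with 100 or more mean counts, retained_intron transcripts took 11.8% in replicate 2 and 14.4% in replicate 1. For mitochondrial ribosomal protein genes the shares were 20.997% in replicate 2 and 24.7% in replicate 1. The lower pooled share in replicate 2 was seen in all 3 sets of genes. Per gene it was lower in replicate 2 in 39 and higher in 24 of the 63 members with a retained_intron transcript. Of 5558 other protein-coding genes with such a transcript, it was lower in 3831 and higher in 1601. In scaled counts, retained_intron transcripts had a log2 ratio of -0.35 over members, against 0.15 for their protein_coding transcripts. The same ratios were -0.29 and 0.05 over the other protein-coding genes, and -0.26 and 0.09 over the members without Rps24.

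**Figure D5:**
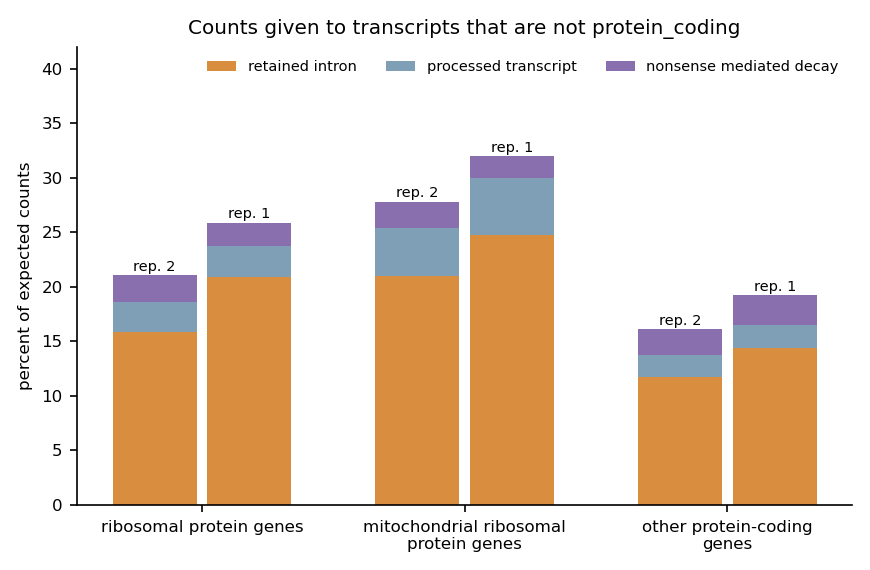
Percent of expected counts given to 3 classes of transcript that are not protein_coding, pooled over the ribosomal protein genes, the mitochondrial ribosomal protein genes and 8561 other protein-coding genes; in each pair the left bar is replicate 2 and the right bar replicate 1. Retained introns make up most of each bar, and each left bar is lower than its right neighbour.

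Per gene the picture varied widely. The median share of a member's TPM in transcripts that are not protein_coding was 13.1% in replicate 2 and 15.8% in replicate 1, a mean of 14.5 ± 1.90% (SD, n = 2, over 79 members). It was 19.1% in replicate 2 and 24.4% in replicate 1 for the other protein-coding genes with 100 or more mean counts. In counts the order was the other way, with medians of 13.4% in replicate 2 and 17.3% in replicate 1 for members and 7.80% and 10.1% for the other genes. In 8 members the share was 0, and none of these has such a transcript in the annotation. In 10 members it exceeded 50% in both libraries: Rpl12, Rpl13a, Rpl22l1, Rpl27a, Rpl3, Rpl37, Rpl5, Rps16, Rps20 and Rps23. This list depends on the quantification. In the read-based table Rpl22l1 alone of these fell below 50% in a library, at 45.8% in replicate 2. Members outside the list passed 50% there in both libraries. Among them were Rps12, at 80.1% in replicate 2 and 78.1% in replicate 1, and Rps26, at 69.3% and 63.2%. The leading transcript was protein_coding in both libraries in 67 of 79 members, and it was the same transcript in both in 71.

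The highest shares were in Rps16, Rpl12, Rpl5, Rps23 and Rpl22l1. Rps16 had 97.1% of its TPM in such transcripts in replicate 2 and 87.1% in replicate 1, all in retained_intron forms. The 518-base form Rps16-203 held 85.8% of the gene's TPM in replicate 2 and 68.8% in replicate 1, and Rps16-202 held 11.2% and 18.3%. Its coding form Rps16-201 had 0.78 TPM in replicate 2 and 2.25 TPM in replicate 1. Rpl12, at 87.0% and 83.8%, was led by the nonsense_mediated_decay form Rpl12-201 with 15.0 and 10.1 TPM. Rpl5, which with Rpl11 and 5S rRNA can bind the p53 regulator Mdm2, had 82.8% in replicate 2 and 87.7% in replicate 1, spread over 3 retained_intron forms with 4 to 7 TPM each in replicate 2. Rps23, a protein of the decoding centre, had 89.6% and 77.1%, led by the processed_transcript form Rps23-203 with 17.4 and 11.7 TPM. Rpl22l1 had 93.038% in replicate 2 and 63.2% in replicate 1, and its leading form in replicate 2, Rpl22l1-209, rested on 16.9 counts there and on 0 in replicate 1. Rpl12 overlaps Lrsam1 and Rpl5 overlaps Fam69a on the other strand.

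Members that host snoRNA genes had larger shares of counts in retained introns than the other members had. By annotation, 29 members hold 55 snoRNA genes on their own strand, with 5 in Rpl4, 4 in Rpl13a, and 3 each in Rpl17 and Rpl23a, among others. These 29 hosts had a median of 14.1% of counts in retained_intron transcripts in replicate 2 and 21.6% in replicate 1, against 5.05% and 6.35% for the 50 other members. Of the 79 members, 63 have an annotated retained_intron transcript, and those without it enter as 0% in either group. Their medians of TPM did not differ in a fixed direction, at 27.3 TPM in replicate 2 and 26.8 TPM in replicate 1 for hosts and 33.7 and 24.5 TPM for the others. The snoRNA genes themselves were nearly empty in these libraries, with 46 counts in replicate 2 and 235 in replicate 1 over all 55, and 10 had any count. Of these counts, 45 in replicate 2 and 201 in replicate 1 came from the 2 snoRNA genes within Rps3. The labelled size range of 250 to 400 is longer than a snoRNA, and its part in these counts was not tested.

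The promoters of the members share letters that were searched on both strands. RefSeq (GRCm38.p6) gives a window of 300 bases, 250 before and 50 after the start, for 62 of the 82 members, and the most upstream start was used for the 10 members with several. CCGGAAG, the core letters bound by factors of the ETS family, was in 24 of the 62 windows, or 38.7%, against 9.14% of the 27025 windows of all genes. CTTTCC was in 45.2% of member windows and 26.4% of all windows, CTCTTTC in 27.4% and 8.06%, CTTTTC in 24.2% and 21.8%, and TATAAA in 11.3% and 14.2%. CTTTCC and CTCTTTC can overlap one another. Within 30 bases of the start on either side, CCGGAAG was in 19.4% of member windows and 4.07% of all windows. The median GC content was 57% in member windows and 52.7% in all windows. These are shares of letters, with no test, and a match is not a site. The windows of all genes were not limited to genes with counts in these libraries.

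The windows of 7 members with high levels and of the low members Rpl22l1 and Rpl7l1 are shown, to set high and low levels side by side, from 60 bases before the start to 20 bases from the start on, 5′ to 3′ in the direction of the gene, with matches to the 5 motifs in capitals:
Rpl41 (chr10:128549149-128549228, minus strand): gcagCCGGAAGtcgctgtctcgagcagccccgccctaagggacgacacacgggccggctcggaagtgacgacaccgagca
Rpl10 (chrX:74270756-74270835, plus strand): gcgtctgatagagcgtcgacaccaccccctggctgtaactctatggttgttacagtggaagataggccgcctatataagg
Rpl37a (chr1:72711200-72711279, plus strand): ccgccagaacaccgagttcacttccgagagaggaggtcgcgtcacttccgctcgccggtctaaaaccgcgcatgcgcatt
Rps24 (chr14:24490618-24490697, plus strand): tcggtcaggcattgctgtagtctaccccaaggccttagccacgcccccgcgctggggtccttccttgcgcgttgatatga
Rps9 (chr7:3703981-3704060, plus strand): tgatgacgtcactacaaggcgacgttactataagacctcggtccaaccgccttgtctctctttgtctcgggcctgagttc
Rps12 (chr10:23787190-23787269, minus strand): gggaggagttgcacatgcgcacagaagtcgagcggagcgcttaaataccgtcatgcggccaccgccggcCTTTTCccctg
Rps28 (chr17:33824543-33824622, minus strand): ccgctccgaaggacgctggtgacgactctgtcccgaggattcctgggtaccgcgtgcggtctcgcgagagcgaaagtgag
Rpl22l1 (chr3:28805448-28805527, plus strand): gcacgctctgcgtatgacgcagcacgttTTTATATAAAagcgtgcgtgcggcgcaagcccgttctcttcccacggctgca
Rpl7l1 (chr17:46782637-46782716, minus strand): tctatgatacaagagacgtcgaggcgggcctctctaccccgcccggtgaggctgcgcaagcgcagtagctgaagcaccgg

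In this stretch Rpl41, Rps12 and Rpl22l1 hold a match and the other 6 hold none. By read-based TPM, Rps12 was below the member median.

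The pyrimidine run that marks the start of ribosomal protein mRNAs was also looked for in the direction of the gene, a search added after the windows had been seen. A run of 8 or more C or T that begins within 20 bases of the RefSeq start was in 28 of 62 member windows, or 45.2%, against 17.0% of all windows. The 3 longest were in Rpl7a (21 bases), Rpl27a (20 bases) and Rpl35 (18 bases), shown from 40 bases before the start with the run in capitals:
Rpl7a (chr2:26910767-26910826, plus strand): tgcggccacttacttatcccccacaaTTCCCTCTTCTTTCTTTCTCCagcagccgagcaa
Rpl27a (chr7:109519155-109519214, plus strand): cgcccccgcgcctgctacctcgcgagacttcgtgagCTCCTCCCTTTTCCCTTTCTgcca
Rpl35 (chr2:39005112-39005171, minus strand): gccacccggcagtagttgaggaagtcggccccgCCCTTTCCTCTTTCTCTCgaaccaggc

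Other parts of the translation machinery were set beside the members. Of 6 ribosomal proteins whose symbols fall outside the rule, 5 had 100 or more mean counts, and the median TPM over all 6 was 31.8 in replicate 2 and 25.9 in replicate 1, close to the members. Fau, which encodes a small subunit protein fused to a ubiquitin-like one, was the highest of them with 128 TPM in replicate 2 and 70.2 TPM in replicate 1. A list of 17 translation factors and related genes, known for mRNAs that start with a pyrimidine run, was not itself searched for the run. Of these 17 genes, 13 had higher scaled counts in replicate 2 (51.7% of all genes had) and 4 lower. Their median log2 ratio was 0.31, with 0 beyond 2-fold in either direction. Pabpc1, the poly(A)-binding protein, had 12679 counts in replicate 2 and 7658 in replicate 1, a ratio of 0.92. Of 24 ribosome assembly genes with 100 or more mean counts, 18 were higher and 6 lower, with a median of 0.21. Ncl (nucleolin) had 4557 counts in replicate 2 and 2773 in replicate 1, a ratio of 0.91. For the 40 mitochondrial ribosomal protein genes at that depth the median ratio was 0.09, with 25 higher and 15 lower. No test was made between these lists and the ribosomal protein genes, whose median was 0.02.

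Sequence copies limit what the counts of single members can show. By alignment of coding sequences to all annotated transcripts, 76 of 82 members had at least 1 other gene with 95% identity or more over 80% or more of the sequence. The median was 5 such genes per member, the highest 57 for Rpl21 and 33 for Rpl7a, and 556 of the 582 copies are annotated pseudogenes. The copies together held 5565 counts in replicate 2 and 5826 in replicate 1. The 285 genes named as ribosomal protein pseudogenes held 1220 counts in replicate 2 and 1014 in replicate 1, or 2.80% and 2.11% of the members' counts. The read-based table placed more there, 3.92% and 3.55%. Single pseudogenes could differ far more than any member between the libraries: Rps6-ps4 had 258 counts in replicate 2 and 33 in replicate 1, and Rpl15-ps3 had 108 counts in replicate 2 and 0 in replicate 1. These 2 were chosen after their values were seen.

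The deposited tables disagreed on a few members. Relative to the ratio of the table totals, 2 members had more than 1.5-fold higher counts in the read-based table and 4 had more than 1.5-fold lower ones. Rpl12 had 144 read-based counts in replicate 2 and 183 in replicate 1, against 369 and 451 alignment-based ones, a log2 difference of -1.89 over both libraries. Rps12, with 23 copies, had 421 and 407 read-based counts against 803 and 917, a difference of -1.62. Rpl36 and Rpl35a lay at the other end with 0.84 each. For Rps24, the difference was -0.09, and its 7 copies held 22 counts in replicate 2 and 29 in replicate 1. Across the 79 members, log2 TPM of the 2 tables had a Spearman rho of 0.92 in replicate 2 and 0.87 in replicate 1.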

How the data were processed

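Nucleoplasmic RNA-seq of 2 libraries of 1 group was used. Per the file headers, the tables are on mm10 with GENCODE M21; aligner, quantifier and strandedness: not given in the sources used here. Deposited gene and transcript tables hold expected counts (estimated, not whole), TPM and FPKM per effective length, the percent of a gene's TPM in each transcript, and credibility bounds, used as a score; the authors' second, read-based transcript tables hold estimated counts and TPM. Gene counts were rounded and scaled by TMM (edgeR 4.0.16; factors 0.997 for replicate 1 and 1.003 for replicate 2). Log2 ratios used a prior count of 0.5 and TPM a pseudocount of 0.1; intervals are exact Clopper-Pearson (scipy 1.17.1). Medians used genes of 10 or more mean counts, calls those of 100 or more. Coding sequences were aligned with BLAST+ 2.17.0. The ratio code was tested on simulated data. Members, lists and alternatives were chosen with earlier results of these data known. Named members were the 6 highest and 3 lowest by mean TPM per subunit (mean count of 100 or more), the 5 extreme count ratios and gaps each way, the 5 highest non-coding shares, members under 10 mean counts, paralogs and the 5 main snoRNA hosts; others were chosen after their values were seen. A few genes these rules would name are not reported here and are left out of the plots by gene; counts and medians over members include them.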

Additional observations from a re-analysis of the deposited data

How the results depend on the processing

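Of 60 alternative values for 8 results, 40 were labelled unchanged, 16 moved and 4 changed sign. Unchanged meant the same direction and a move below the replicate spread or counting interval. Numbers of members beyond a fold limit have no such spread, and those labelled unchanged equalled the main number. The 2-fold number at 100 or more mean counts repeats the main setting. The level, subunit difference and non-coding share are means of both libraries. With 1 library left out they cannot move beyond the replicate SD, so those labels test nothing. FPKM differs from TPM by a constant per library, which nearly cancels in the subunit difference. Scaling by DESeq2 in place of TMM likewise cancels in the gap. Gene length ranks the members nearly as effective length does, so these labels test little too. Omitting members that overlap another gene was chosen after seeing the data. The median level (28.8 TPM) was 41.9 in FPKM, 20.7 in CPM, 42.2 per kilobase of effective length and 15.8 in read-based TPM, and with 1 library left out ran from 24.9 to 32.7 TPM. The difference between subunits (-0.21) was 0.00387 in CPM, 0.17 without overlapping members, -0.0136 in read-based TPM, -0.0905 both at 100 or more mean counts and without paralogs, and -0.31 over all members; with 1 library left out it ran from -0.25 to -0.16. The median count ratio (0.02) was -0.00844 in read-based counts, where 1 member (Rpl36) passed 2-fold. The median TPM ratio (0.33) was 0.0605 in FPKM, where that of all genes was 0.00, 0.79 in read-based TPM and 0.25 without overlapping members. A 2-fold limit left 0 members with a gap. The non-coding share (14.5%) was 20.8% in the read-based table and ran from 13.1% to 15.8% with 1 library left out. The rank correlation of length and level (-0.22) was 0.49 with CPM, -0.0862 with the longest coding transcript and -0.19 with read-based TPM, and ran from -0.23 to -0.20 with 1 library left out. FPKM, CPM and counts per kilobase are other units than TPM, so the moved labels of the median level there are changes of unit. CPM is also not divided by length. The cause of the other shifts was not tested. Ratios between libraries could not be fitted with 1 library left out. No paired analysis was possible because there is only 1 group.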
